A study of Mus musculus with 11 samples.

Results

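Control libraries from 2 stages of mouse neocortical development were compared: 3 libraries of sorted cells collected at E15.5, where E stands for embryonic day, and 3 libraries of tissue collected at E12.5. These 6 were chosen from the 11 libraries of the series because they carried no L3mbtl3 plasmid and were not labelled knockout. All embryos were of the CD-1 strain. The E15.5 libraries came from wild-type embryos whose dorsal telencephalon had been electroporated in utero at E12.5 with pCIG2, an empty plasmid that expresses green fluorescent protein (GFP), and the GFP-positive cells were isolated by fluorescence-activated cell sorting. The E12.5 libraries came from microdissected dorsal telencephalon that was neither electroporated nor sorted. Of these, 2 were heterozygous for L3mbtl3 (L3mbtl3 +/-) and 1 was wild-type. The other 5 libraries, used only for a side-by-side reading, were 3 of E15.5 cells electroporated with pCIG2-L3mbtl3 and sorted in the same way, and 2 of E12.5 tissue labelled L3mbtl3 -/-. The age labels read embryonic day 15 and embryonic day 12, while the titles and descriptions give E15.5 and E12.5. Stage, electroporation and sorting changed together between the arms. L3mbtl3 genotype changed in part, since 2 of the 3 E12.5 libraries were heterozygous. A difference between the arms therefore cannot be told apart as an effect of any 1 of these. The labels do not say whether the libraries of an arm came from separate embryos. The p-values therefore reflect the spread among these 6 libraries, which may be technical.

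The dorsal telencephalon gives rise to the neocortex. Its apical progenitors, the radial glia, line the ventricle, keep a Pax6-positive and Sox2-positive identity through Notch signalling and Hes factors, and divide either to renew or to give Eomes-positive intermediate progenitors and neurons. Early divisions give deep-layer neurons marked by Tbr1 and Bcl11b, and later divisions give upper-layer neurons marked by Cux2, which migrate outward past them. A plasmid electroporated into the ventricle enters the dividing cells that line it and is passed on to their progeny, so that remaining progenitors and the neurons born from them can be sorted days later. A tissue sample also holds vessels, blood and membranes.

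Library totals were 18266535 to 20863979 counts at E15.5 and 16527551 to 26658718 counts at E12.5. A count of at least 1 was found for 17806 to 21003 genes per E15.5 library and 22045 to 23173 genes per E12.5 library. The 3 E12.5 libraries lay close together, with a median coefficient of variation of 3.77% over 10482 genes with a level of 5 or more in both arms in CPM (counts per 1000000 counts of a library). Among the E15.5 libraries that median was 14.2%. On a principal component analysis the first component took 85.3% of the variance and separated the arms, and the second took 9.45% and separated GFP control 1 from GFP control 3. These 2 libraries also stood at opposite ends for most cell cycle, progenitor, neuronal and ventral forebrain genes, as described for each group.

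Of 15968 genes tested with edgeR's quasi-likelihood test, 4963 (31.1%) were called higher at E15.5 and 4992 (31.3%) were called lower at an adjusted p under 0.05. Against a threshold of 2-fold rather than of no change, 1412 genes (8.84%) were called higher and 1927 (12.1%) lower. A further 6013 genes were not called. For 11572 of the 15968 genes the arms did not overlap, with every library of 1 arm above every library of the other. The median log2 fold change over all genes was -0.025. Scaling by library totals alone, without the trimmed mean of M-values (TMM) factors, moved that median to -0.296 and the split of calls to 3590 higher and 6525 lower. Upper quartile factors moved it to -0.204, with 3979 higher and 6009 lower. Each gene and list is therefore to be read relative to the median of all genes. Every list is to be read against these shares, since about 1 gene in 3 was called in each direction. A list count near them does not set the list apart from all genes.

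**Figure D1:**
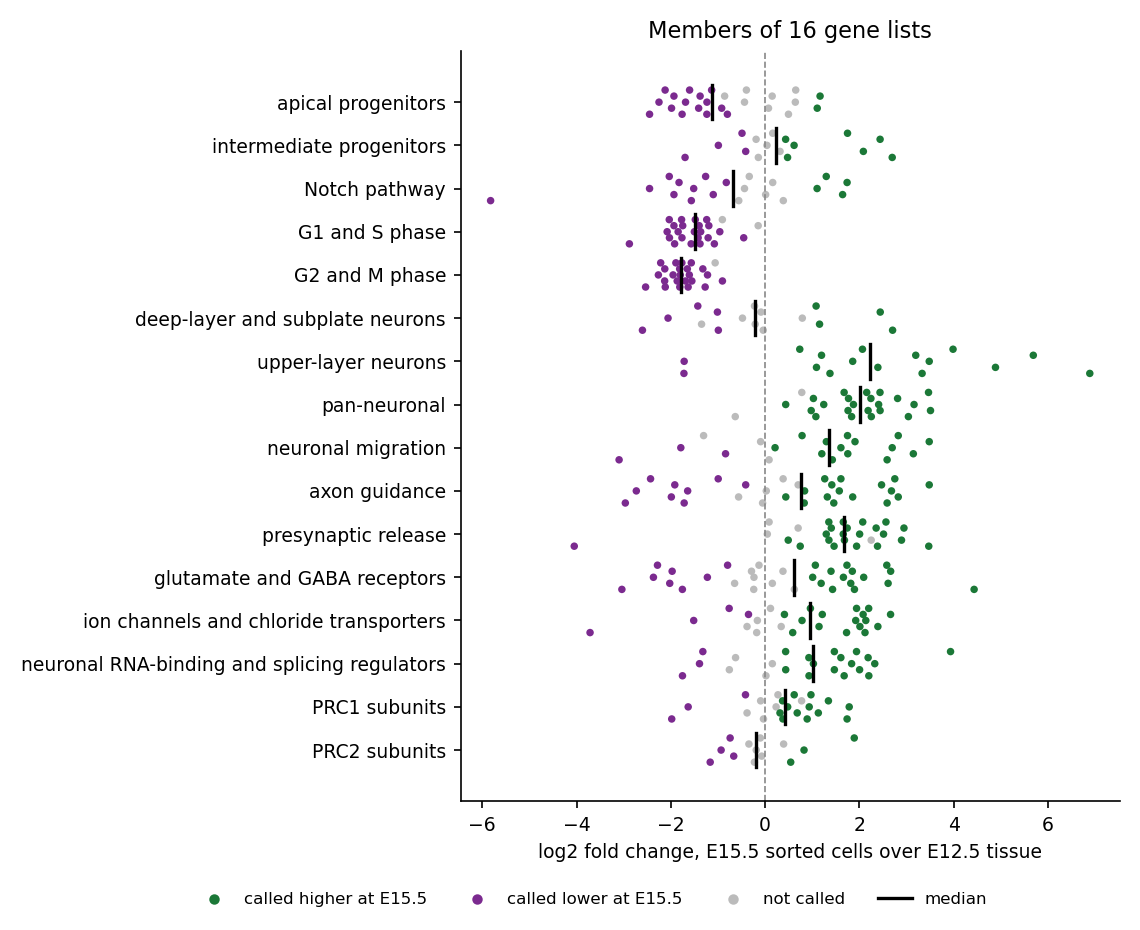
Log2 fold change of E15.5 sorted cells over E12.5 tissue (horizontal axis) for every tested member of 16 gene lists, 1 point per gene, coloured by its edgeR call, with a black bar at each list's median. The cell cycle lists sat to the left of 0, with medians of -1.48 and -1.78, and the pan-neuronal and upper-layer lists to the right, with medians of 2.01 and 2.23.

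Apical progenitor genes were mostly lower in the E15.5 cells. Of 25 tested, 15 fell and 2 rose, with a median log2 fold change of -1.14 against -0.025 over all genes. Without GFP control 3, 16 fell and 6 rose. Their summed level was 4302, 3259 and 2196 CPM in GFP controls 1, 2 and 3, and 6058, 5844 and 5811 CPM in heterozygote 1, heterozygote 2 and wild-type 1. Every E15.5 library lay below every E12.5 library, and GFP control 1 held the highest level of the 3 for 22 of the 25 genes. In these bulk libraries fewer progenitors and less RNA per progenitor cannot be told apart.

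Pax6, the transcription factor of cortical radial glia (ENSMUSG00000027168, GRCm38 chromosome 2, 105668900 to 105697364), stood at 124, 82.6 and 45.7 CPM in the GFP controls and at 200, 202 and 193 CPM at E12.5. The arms did not overlap, and its log2 fold change was -1.24 ± 0.33 (SE, n = 3 libraries per arm, edgeR adjusted p = 0.0148). Without GFP control 2 the edgeR adjusted p of Pax6 was 0.0581, at a log2 fold change of -1.22. Nes, which encodes the intermediate filament nestin, stood at 290, 195 and 107 CPM against 769 to 796 CPM. The Notch effectors Hes1 and Hes5 fell too. Hes1 stood at 14.7, 7.6 and 2.43 CPM against 44.8 to 45.7 CPM, and Hes5 at 17.8, 13.2 and 4.81 CPM against 43.1 to 49.6 CPM. Id4, an inhibitor of proneural factors, fell by 2.25 on the log2 scale, and Emx2, a patterning factor of the early cortex, fell by 2.12. Sox2, a pluripotency and neural progenitor factor, was not called. It stood at 191 CPM in GFP control 1, above the 136 to 151 CPM of the E12.5 libraries, but at 99.7 and 32.7 CPM in the other 2 GFP controls. Fabp7, Slc1a3 and Sox1, also radial glial genes, showed the same overlap and were not called, with log2 fold changes of 0.15, 0.07 and 0.49.

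The 2 apical list members that rose with all 6 libraries were Ptprz1, a receptor tyrosine phosphatase, and Mfge8, a secreted adhesion protein. Ptprz1 stood at 629, 493 and 511 CPM against 243 to 259 CPM, and Mfge8 at 109, 75.3 and 47.8 CPM against 33.5 to 35.2 CPM. Both were higher in every E15.5 library than in every E12.5 library, with log2 fold changes of 1.10 ± 0.11 and 1.17 ± 0.28.

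Cell cycle genes were lower throughout. All but 2 of the 25 tested G1 and S phase genes fell (median log2 fold change -1.48), and all but 1 of the 24 tested G2 and M phase genes fell (median -1.78), with none called higher in either list. The G2 and M phase list summed to 2626, 1461 and 615.4 CPM in the 3 GFP controls and to 5817, 5666 and 5700 CPM at E12.5. The G1 and S phase list summed to 2944, 1926 and 1088 CPM against 5893, 5799 and 5668 CPM. Within the E15.5 arm the spread was wide and ran one way: all 24 G2 and M phase genes were highest in GFP control 1 and lowest in GFP control 3, a 4.27-fold range of the sum, against a 1.03-fold range among the E12.5 libraries.

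Mki67, which marks cycling cells (ENSMUSG00000031004, GRCm38 chromosome 7, 135689788 to 135716379), stood at 358, 171 and 60.2 CPM in the GFP controls and at 859, 852 and 846 CPM at E12.5, a log2 fold change of -2.12 ± 0.57 (edgeR adjusted p = 0.0161). Top2a, the mitotic topoisomerase, followed it at 429, 206 and 71.4 CPM against 1016 to 1042 CPM. Cenpf, a kinetochore protein, fell by 2.54 on the log2 scale. Of the replication genes, Orc1, a subunit of the origin recognition complex, fell by 2.88 and the helicase subunit Mcm3 by 2.03. The 3 genes not called were Cdt1, a replication licensing factor, E2f1, a transcription factor of the G1 to S transition, and the mitotic ubiquitin-conjugating enzyme Ube2c, with log2 fold changes of -0.91, -0.15 and -1.06. E2f1 stood at 52.2 and 45.7 CPM in GFP controls 1 and 2, above and within the 44.2 to 48.1 CPM of the E12.5 libraries, and at 26.2 CPM in GFP control 3. Without GFP control 2 the calls of the G2 and M phase list dropped from 23 to 9 of 24 at a median of -1.74, and Mki67 and Top2a had edgeR adjusted p of 0.0674 and 0.0673 at log2 fold changes of -2.02 and -2.04. With no count filter both had 0.0642 and 12 of 24 genes of the list were called. With the wild-type library alone at E12.5, 2 of 25 and 0 of 24 genes of these lists were called, with medians of -1.45 and -1.81.

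**Figure D2:**
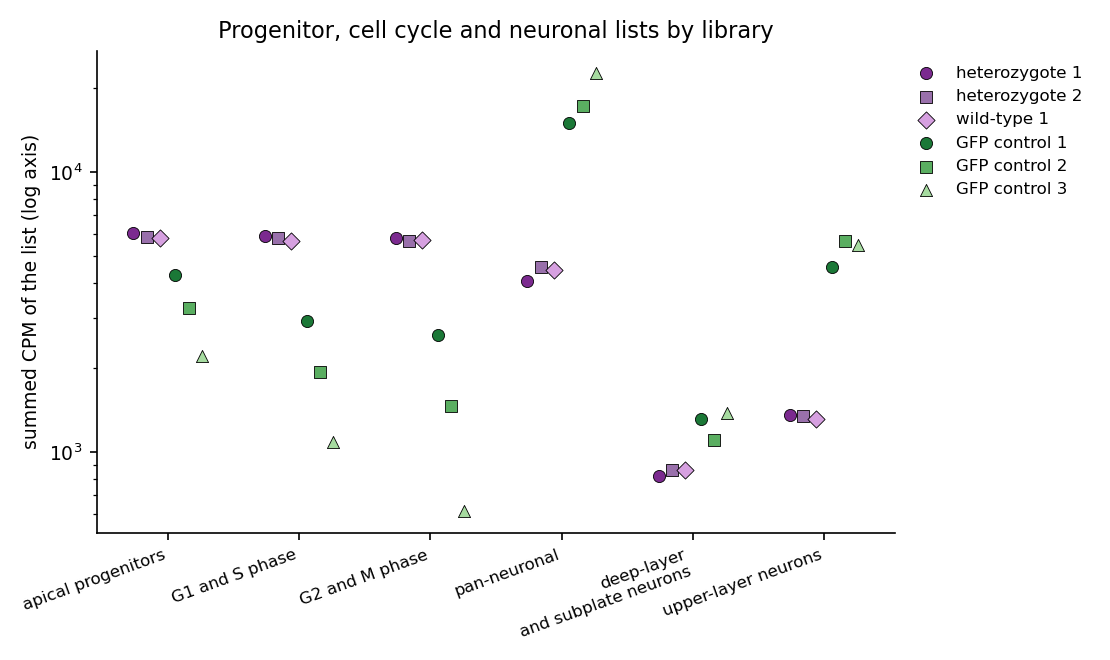
Summed CPM of 6 gene lists (log axis) in each of the 6 libraries, 1 point per library, with the E12.5 libraries to the left of the E15.5 libraries in each list. The 3 E12.5 libraries lie together in every list, whereas the GFP controls spread from 2626 to 615.4 CPM for the G2 and M phase list and from 15040 to 22690 CPM for the pan-neuronal list.

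Promoters of many G2 and M phase genes are known to carry paired elements for late cell cycle expression. These are a CCAAT box and a cell cycle genes homology region. In RefSeq promoter windows of 300 bases (GRCm38.p6, 250 before and 50 after the start), the letters TTTGAA on either strand were found in 17 of 22 windows of 20 G2 and M phase genes (77.3%) and in 17.9% of all 32851 windows in the table. CCAAT, also sought on both strands, was found in 86.4% of the same 22 windows, in 72.7% of the 22 windows of G1 and S phase genes and in 37.4% of all, while TTTGAA was found in 9.09% of the G1 and S phase windows. The E2F motif TTTGGCGC was found in 5 of 22 windows of G1 and S phase genes (22.7%), in none of the G2 and M phase windows and in 0.514% of all. Windows of 1 gene can overlap, and TTTGAA and CCAAT, read on both strands, can share a base. A match describes the letters in the window and is not evidence of binding.

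Below are 5 of the G2 and M phase promoters that hold both motifs, each from 100 bases before to 50 after the start, 5′ to 3′ on the gene's strand. Capitals mark TTTGAA or its reverse complement TTCAAA, and CCAAT or its reverse complement ATTGG. They show where the letters sit relative to the start in 4 genes called lower and in Ube2c, which was not called. Ccnb2 (cyclin B2) lies at chr9:70421505-70421654 on the minus strand, Cdk1 (its kinase) at chr10:69352863-69353012 on the minus strand, Plk1 (polo-like kinase) at chr7:122159335-122159484 on the plus strand, Ube2c at chr2:164769829-164769978 on the plus strand and Cdc20 (an activator of the anaphase-promoting complex) at chr4:118437294-118437443 on the minus strand.
Ccnb2: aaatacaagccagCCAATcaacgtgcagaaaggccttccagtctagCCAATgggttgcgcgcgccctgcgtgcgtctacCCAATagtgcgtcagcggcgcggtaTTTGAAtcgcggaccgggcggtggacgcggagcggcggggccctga
Cdk1: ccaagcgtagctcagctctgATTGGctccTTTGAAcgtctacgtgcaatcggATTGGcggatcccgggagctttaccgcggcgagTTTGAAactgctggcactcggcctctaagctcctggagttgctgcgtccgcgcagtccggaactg
Plk1: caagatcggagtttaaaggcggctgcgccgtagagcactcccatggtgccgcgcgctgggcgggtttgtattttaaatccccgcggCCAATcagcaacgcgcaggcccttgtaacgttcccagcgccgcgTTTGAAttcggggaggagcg
Ube2c: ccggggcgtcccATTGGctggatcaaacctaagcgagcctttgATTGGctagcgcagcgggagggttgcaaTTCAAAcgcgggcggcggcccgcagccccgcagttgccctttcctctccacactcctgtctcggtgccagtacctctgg
Cdc20: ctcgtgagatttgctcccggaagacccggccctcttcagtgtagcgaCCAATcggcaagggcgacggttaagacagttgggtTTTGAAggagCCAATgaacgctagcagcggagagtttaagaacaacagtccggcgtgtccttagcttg

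In the counts, Cdk1 stood at 70.7, 42.4 and 18.3 CPM in the GFP controls and at 140 to 144 CPM at E12.5. Ccnb2 stood at 43.7, 33.4 and 15.8 CPM against 73.8 to 76.9 CPM. Plk1 stood at 59.3, 38.4 and 18.4 CPM against 86.4 to 96.1 CPM. All 3 were lower in every E15.5 library, with log2 fold changes of -1.69 ± 0.43, -1.27 ± 0.33 and -1.22 ± 0.38. Cdc20 fell by 0.91. The calls of Plk1 and Cdc20 were lost without any 1 library other than GFP control 1 or 3 (edgeR adjusted p 0.0615 to 0.0859), and that of Cdk1 without GFP control 2 (0.0541). Ube2c stood at 76.6, 56.9 and 19.7 CPM against 105 to 109 CPM without being called (edgeR adjusted p = 0.0686).

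Among 11 tested genes of cell cycle exit, 3 rose and 4 fell (median -0.12), near the 31.1% and 31.3% of all genes. Only 1 fell without GFP control 2 or without any 1 E12.5 library, and without GFP control 3 the counts were 5 and 5 (median 0.14). Cdkn1b, the cyclin-dependent kinase inhibitor p27, rose from 182–185 CPM at E12.5 to 377, 493 and 515 CPM in the GFP controls, and Fzr1, an activator of the anaphase-promoting complex in G1, rose by 0.89 on the log2 scale. Cdkn1a, the inhibitor p21, fell from 20.8–21.8 CPM to 2.59, 5.03 and 3.10 CPM. Cdkn1c, the inhibitor p57, was not called, and at 75.2, 125 and 216 CPM the GFP controls lay on both sides of its E12.5 levels of 146 to 156 CPM.

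Intermediate progenitors, the dividing Eomes-positive cells between radial glia and neurons, showed no common direction by their list. Of 16 genes tested, 7 rose and 4 fell, with a median log2 fold change of 0.24 that became -0.02 when the libraries were scaled by their totals alone and 0.08 without GFP control 1, and 2 fell without heterozygote 2. Eomes itself stood at 294, 364 and 264 CPM in the GFP controls and 218 to 226 CPM at E12.5, a log2 fold change of 0.48 ± 0.12 (edgeR adjusted p = 0.0141). The call of Eomes was lost when scaled by library totals (0.21, edgeR adjusted p = 0.222) or upper quartiles and without either heterozygote (edgeR adjusted p 0.0568 and 0.0548). Insm1, a zinc finger factor of newly formed intermediate progenitors, stood at 291 to 322 CPM against 51.9 to 61.3 CPM. Sstr2, a somatostatin receptor, rose by 1.75. Btg2, an antiproliferative factor, fell by 0.99, a call lost without GFP control 2, without any 1 E12.5 library or with no count filter (edgeR adjusted p 0.0567 to 0.0835). Neurog1, a proneural factor, fell by 1.70 to 4.43–5.78 CPM.

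Proneural factors start neuronal differentiation and neuronal basic helix-loop-helix factors carry it on. Of 13 such genes tested, 4 rose and 4 fell, near the 31.1% and 31.3% of all genes. Neurog2, the main proneural factor of the dorsal telencephalon, stood at 185, 216 and 160 CPM in GFP controls 1 to 3 and at 202 to 220 CPM in the E12.5 tissue. The arms overlapped and it was not called (log2 fold change -0.19 ± 0.12). Its downstream factor Neurod2 stood at 754, 1304 and 1632 CPM against 77.8, 95.7 and 100 CPM, a log2 fold change of 3.75 ± 0.30 (edgeR adjusted p = 0.000118). Neurod6 rose by 2.65 and Bhlhe22, another factor of postmitotic cortical neurons, by 2.40. Nhlh1 and Nhlh2, transient factors of early differentiating neurons, went the other way: Nhlh1 fell from 97.5–101 CPM to 20.8–23.2 CPM, and Nhlh2 fell from 61.1–68.7 CPM to 3.26–12.8 CPM.

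Notch signalling keeps progenitors undifferentiated. Of 20 pathway genes tested, 10 fell and 4 rose (median -0.69, which was -1.17 without GFP control 1). The ligand Dll1 fell by 0.82, and the receptors Notch2 and Notch3 by 1.51 and 1.83. All 3 calls were lost without GFP control 2, those of both receptors also without heterozygote 1 or with no count filter, and that of Notch2 without the wild-type library (edgeR adjusted p 0.0501 to 0.0726). Notch1 was not called, at 251, 114 and 45.0 CPM in the GFP controls against 174 to 201 CPM. Of the targets, Hey1 fell by 2.03, and Heyl fell from 16–18.6 CPM to 0.457, 0.419 and 0 CPM. The genes that rose were Jag2, a ligand, Rfng, a glycosyltransferase that modifies Notch receptors, Numbl, an inhibitor of Notch expressed in neurons, and Dner, a neuronal transmembrane protein of the Notch ligand family, by 1.30, 1.74, 1.64 and 1.10 on the log2 scale.

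Genes of differentiated neurons were higher in the sorted cells. Of 24 pan-neuronal genes tested, 22 rose and none fell, with a median log2 fold change of 2.01. They summed to 15040, 17250 and 22690 CPM in GFP controls 1, 2 and 3 and to 4094, 4587 and 4476 CPM at E12.5. GFP control 3, the library with the least cell cycle RNA, held the highest level for 19 of the 24 genes, and GFP control 1 held the lowest for 19.

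Tubb3, the neuronal beta-tubulin, stood at 1695, 2157 and 3133 CPM against 476 to 496 CPM, a log2 fold change of 2.25 ± 0.22 (edgeR adjusted p = 0.000244). Dcx, a microtubule-associated protein of migrating neurons, stood at 1737, 1505 and 1484 CPM against 450 to 534 CPM (log2 fold change 1.68 ± 0.10). Here the GFP controls did not follow the order seen for Tubb3. The larger increases were those of Cntn2, an axonal adhesion molecule, from 179–220 CPM to 1856, 2142 and 2932 CPM, and Mapt, the axonal microtubule protein tau, from 86.4–112 CPM to 724, 1020 and 1535 CPM. Myt1l, a factor that represses non-neuronal genes in neurons, rose by 3.16 ± 0.11. The 2 genes not called were Nefl, the light neurofilament subunit, at 5.03 to 11.9 CPM against 11.6 to 14.3 CPM, and Ina, alpha-internexin, at 115 to 291 CPM against 97.0 to 113 CPM.

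In the RefSeq windows of 14 pan-neuronal genes, the E-box CAGATG, read on both strands, was found in 10 of 25 windows against 17.2% of all windows, and the E-box CAGCTG in 5 of 25 against 16.3%. CAGATG was found in 6.25% of the 16 windows of upper-layer genes. These shares describe letters within 300 bases only.

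Upper-layer genes rose while deep-layer genes were mixed. Of 16 upper-layer genes tested, 14 rose and 2 fell (median 2.23). No member's arms overlapped, which also held for 11572 of all 15968 genes tested. Of 16 deep-layer and subplate genes tested, 4 rose and 5 fell (median -0.22), near the 31.1% and 31.3% of all genes. The number that fell was 8 without GFP control 1 or 3 (medians -0.53 and -0.45) and 3 without GFP control 2 (median -0.05), heterozygote 1 or the wild-type library. The upper-layer list summed to 4587, 5672 and 5477 CPM in the GFP controls against 1315 to 1358 CPM, and the deep-layer list to 1310, 1099 and 1376 CPM against 819.7 to 864.2 CPM.

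Cux2, an upper-layer homeodomain factor (ENSMUSG00000042589, GRCm38 chromosome 5, 121856366 to 122050102), stood at 373, 485 and 397 CPM in the GFP controls and at 25.7, 28.8 and 24.8 CPM at E12.5, a log2 fold change of 3.98 ± 0.14 (edgeR adjusted p = 2.09e-05). Pou3f1 stood at 156, 215 and 304 CPM against 7.26 to 8.04 CPM. The POU factors Pou3f1, Pou3f2 and Pou3f3, which act in upper-layer production and migration, rose by 4.88, 3.19 and 2.06. Unc5d, a netrin receptor of newborn upper-layer neurons, rose by 3.48, and Rorb, a factor of layer 4 neurons, rose from 3.93–6.0 CPM to 22.4–31.2 CPM. Inhba, a subunit of activin, had 0.0343 to 0.275 CPM at E12.5 and 11.8, 18.8 and 18.9 CPM at E15.5. The 2 members that fell were Plxnd1, a semaphorin receptor, from 115–132 CPM to 25.7–52.2 CPM, and Nectin3, an adhesion molecule, from 175–211 CPM to 55.7–61.9 CPM.

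Among the deep-layer genes, Tbr1, a factor of corticothalamic and subplate neurons, stood at 405, 475 and 409 CPM against 186 to 199 CPM (log2 fold change 1.15 ± 0.09, edgeR adjusted p = 9.73e-05). Bcl11b, a factor of subcerebral projection neurons, was not called: GFP control 1 had 378 CPM, while 172 and 152 CPM in the other 2 lay just above the 125 to 145 CPM of E12.5. Fezf2, which specifies subcerebral neurons and is also expressed in early progenitors, was not called either. GFP control 3 held 174 CPM, above the 86.9 to 100 CPM of E12.5, and the other 2 held 48.7 and 44.7 CPM, below it. Ldb2, a cofactor of LIM-homeodomain proteins, rose by 2.70 and Sox5, a factor of deep-layer timing, by 1.08. Zfpm2, a corticothalamic cofactor, fell from 27.0–31.5 CPM to 3.71–5.48 CPM, and Nr4a2, a subplate nuclear receptor, fell by 1.01. Per length, as TPM (counts per exon length, scaled to sum to 1000000) averaged over an arm, Cux2 went from 10.2 at E12.5 to 130.3 at E15.5 and Tbr1 from 137.3 to 246.2, so Tbr1 was the higher of these 2 levels in both arms.

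**Figure D3:**
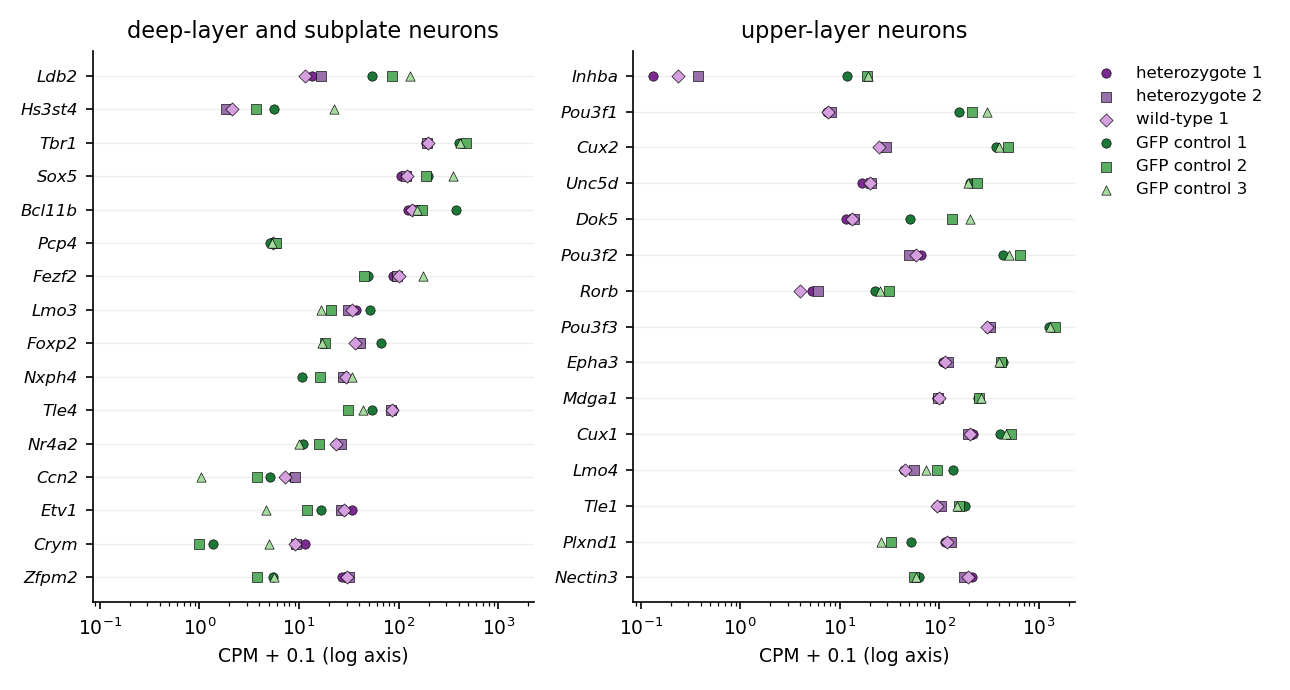
CPM plus 0.1 (log axis) of each deep-layer and subplate gene (left) and 15 of the 16 upper-layer genes (right) in each of the 6 libraries, 1 point per library, with genes ordered by fold change. In the upper-layer panel the E15.5 points stand apart from the E12.5 points for all 15 genes shown, while in the deep-layer panel Fezf2 and Foxp2 have GFP controls on both sides of the E12.5 libraries.

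Genes for migration and wiring differed in both directions. Of 20 migration genes tested, 14 rose and 3 fell (median 1.36), and 5 fell without GFP control 1. Tiam2, an exchange factor for Rac, rose by 3.14. Sema3c, a secreted semaphorin, rose from 29.3–35.5 CPM to 225, 226 and 121 CPM. The reelin receptors Vldlr and Lrp8 rose by 1.20 and 1.43, and their adaptor Dab1 by 1.75. Cxcr4, a chemokine receptor, fell by 1.79, Filip1, a regulator of filamin, by 3.10, and filamin A itself (Flna) by 0.84.

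Of 30 axon guidance genes tested, 16 rose and 9 fell (median 0.77), the latter near the 31.3% of all genes. Family members took different directions. Robo1 and Robo2, receptors for Slit proteins, rose by 2.47 and 2.75, while their ligands Slit2 and Slit3 fell by 2.73 and 2.43. Robo2 stood at 762, 868 and 791 CPM against 116 to 123 CPM, and Slit2 at 26.9, 16.2 and 11.3 CPM against 113 to 126 CPM. Of the netrin receptors, Unc5a rose by 2.68 while Dcc fell by 1.00 and Unc5c by 1.92. Of the neuropilins, the semaphorin co-receptors, Nrp1 rose from 103–109 CPM to 259, 324 and 380 CPM and Nrp2 fell from 136–144 CPM to 15.9–21.2 CPM. Plxna4, which signals with them, rose from 96.1–124 CPM to 684–826 CPM.

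Genes of the presynaptic release machinery rose almost throughout: 21 of 26 tested rose and 1 fell (median 1.67). Cplx1, a complexin that clamps vesicle fusion, rose from 7.13–7.71 CPM to 45.9, 71.2 and 131 CPM. Rab3a, a vesicle GTPase, rose by 2.94 and the synaptotagmin Syt4 by 2.89. Snap25 and Vamp2, members of the fusion complex, rose by 1.94 and 1.66. Sv2b, a synaptic vesicle protein, was the 1 gene that fell, from 24.1–26.2 CPM to 1.17, 0.419 and 2.93 CPM, while its relative Sv2a rose by 2.51. The vesicular glutamate transporters Slc17a6 and Slc17a7 were not called, with log2 fold changes of 0.08 and 0.70.

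Of 31 glutamate and GABA receptor genes tested, 15 rose and 8 fell (median 0.62, which was 0.23 without GFP control 2 and 0.98 without GFP control 3). Gria2, the AMPA receptor subunit that limits calcium entry, stood at 1317, 1346 and 1126 CPM against 284 to 304 CPM. Grin1 and Grin2b, the obligate and the embryonic NMDA receptor subunits, rose by 2.61 and 2.58. Both subunits of the GABA-B receptor rose: Gabbr2 stood at 17.6, 31.1 and 36.0 CPM against 1.23 to 1.43 CPM (log2 fold change 4.43 ± 0.32), and Gabbr1 at 369, 406 and 436 CPM against 115 to 125 CPM. Among GABA-A subunits Gabrb2 rose by 1.85, while Gabrg1, Gabra4 and Gabrb1 fell by 3.04, 2.02 and 2.28. The last 3 had under 9 CPM in every library.

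Of 25 ion channel and chloride transporter genes tested, 16 rose and 4 fell (median 0.96), and 2 fell without GFP control 2 or without any 1 E12.5 library. The sodium channels Scn1a, Scn2a and Scn3a rose by 2.66, 2.08 and 1.73, and the potassium channel Kcnq3 by 2.39. Cacna1g, a low-threshold calcium channel, fell from 80.0–82.2 CPM to 6.39, 5.09 and 6.97 CPM, while its relative Cacna1h rose from 37.7–46.0 CPM to 141–181 CPM. The chloride exporter Slc12a5 fell from 8.02–10.1 CPM to 1.99–5.28 CPM, with an edgeR adjusted p of 0.0504 without GFP control 2. The chloride importer Slc12a2 was not called, at 207, 86.2 and 41.9 CPM in the GFP controls on both sides of 133 to 157 CPM.

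Neuronal RNA-binding proteins set the splicing and stability of neuronal transcripts. Of 23 tested, 16 rose and 3 fell (median 1.02), and 5 fell without GFP control 1. Rbfox1, a neuronal splicing factor, rose from 10.5–14.5 CPM to 157, 189 and 235 CPM (log2 fold change 3.93 ± 0.20). Nova2, Rbfox2 and Celf2 rose by 1.94, 1.68 and 1.61, whereas Nova1 fell by 1.75. Ptbp1, the progenitor splicing repressor, fell from 407–427 CPM to 198, 163 and 137 CPM (log2 fold change -1.32 ± 0.14, edgeR adjusted p = 0.000289). Its neuronal paralog Ptbp2 was not called, at 463 to 549 CPM against 498 to 503 CPM.

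The BAF chromatin remodelling complex exchanges subunits when progenitors become neurons. The progenitor subunits Actl6a and Ss18 fell by 0.76 and 1.35, and Phf10 was not called (0.04). The neuronal subunits Actl6b, Dpf1 and Ss18l1 rose by 2.94, 3.20 and 1.92, and Dpf3 was not called (0.45). Actl6a stood at 92.8, 88.5 and 79.3 CPM against 145 to 150 CPM, and Actl6b at 97.7, 126 and 186 CPM against 15.4 to 21.3 CPM. Per length, Actl6a averaged 147.3 TPM at E12.5 and 70.7 TPM at E15.5, and Actl6b 16.3 and 98.7 TPM.

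Genes that mark the age of cortical progenitors differed as well. The apical progenitor list had a median of -1.14. In these bulk libraries fewer progenitors and a change with progenitor age cannot be told apart. Of 8 early temporal genes tested, 6 fell and 1 rose (median -0.97). Hmga2, a chromatin protein of early progenitors, fell from 98.8–136 CPM to 11, 8.02 and 4.15 CPM, and Lin28b, an inhibitor of let-7 microRNA processing, by 2.29 to 5.07, 1.68 and 1.88 CPM. Igf2bp1, Igf2bp2 and Igf2bp3, RNA-binding proteins of early progenitors, fell by 1.10, 0.69 and 0.83. The gene that rose was Mycn, by 1.23.

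Of 14 late temporal and astroglial genes tested, 4 rose, near the 31.1% of all genes, and 8 fell (median -0.70, which was -1.10 without GFP control 1). Those that rose were Nfix and Nfib, nuclear factor I proteins of late progenitors and neurons, Tnc, an extracellular matrix protein, and Aldh1l1, a folate enzyme of astroglia. Nfix stood at 424, 578 and 1039 CPM against 209 to 250 CPM, and Nfib rose by 0.79. Tnc stood at 236, 159 and 41.5 CPM against 13.6 to 16.1 CPM. Aldh1l1 stood at 66.9, 46.3 and 8.68 CPM against 0.857 to 1.38 CPM, so GFP control 3, which had the lowest cell cycle sum, also had the lowest level of both. Nfia fell by 0.44. Among the 8 that fell, Gja1, a gap junction protein of radial glia and astrocytes, went from 222–235 CPM to 20.7, 16.6 and 8.19 CPM, and the astroglial lipoprotein gene Apoe, which microglia also express, fell by 1.46. Gfap and S100b, late astrocyte genes, had too few counts to be tested.

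The series is built around L3mbtl3, a chromatin protein with MBT domains that binds Polycomb complexes (ENSMUSG00000039089, GRCm38 chromosome 10, 26274468 to 26375185). Its level did not differ detectably between these arms, at 54.5, 50.7 and 60.9 CPM in the GFP controls, 56.2 and 58.3 CPM in the heterozygotes and 58.9 CPM in the wild-type library (log2 fold change -0.06 ± 0.09, edgeR adjusted p = 0.587). The 2 heterozygotes lay within 3 CPM of the wild-type library. Of the 7 tested genes of the MBT-domain list, L3mbtl3 included, 1 rose and 1 fell: Samd1, a CpG island-binding partner, rose from 48.3–62.2 CPM to 122, 213 and 255 CPM, and Mbtd1 fell by 0.31. The call of Mbtd1 was lost without GFP control 2 or without any 1 E12.5 library (edgeR adjusted p 0.0592 to 0.0769), and without GFP control 1 or 3 the list had 3 or 2 genes lower.

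Polycomb repressive complex 1 (PRC1) ubiquitinates histone H2A and complex 2 (PRC2) methylates histone H3. Of 22 PRC1 genes tested, 13 rose and 3 fell (median 0.43). With scaling by library totals these counts were 9 and 6 and the median was 0.16. Kdm2b, which recruits a variant PRC1 to CpG islands, rose from 61.7–63.8 CPM to 192, 219 and 235 CPM (log2 fold change 1.78 ± 0.09). Auts2, a subunit of another variant found in neurons, rose from 165–173 CPM to 403–476 CPM, and the chromobox subunit Cbx8 rose by 1.74. The genes that fell were Cbx2, Pcgf5 and Scml2, by 0.42, 1.98 and 1.63, and the call of Cbx2 was lost without GFP control 2 or any 1 E12.5 library (edgeR adjusted p 0.0615 to 0.0926). The catalytic subunits Ring1 and Rnf2 were not called, with log2 fold changes of -0.10 and -0.04.

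Of 13 PRC2 genes tested, 3 rose and 4 fell (median -0.19), against 31.1% and 31.3% of all genes. With scaling by library totals or without GFP control 1, 8 fell, the latter at a median of -0.32, and without GFP control 3 the median was -0.09. The core subunits Suz12 and Eed fell by 0.93 and 0.67 and the histone-binding subunit Rbbp7 by 1.17. The methyltransferase Ezh2 was not called, at 352, 311 and 247 CPM against 353 to 357 CPM, and its paralog Ezh1 rose by 0.54 (0.27 with an edgeR adjusted p of 0.0581 when scaled by library totals). The accessory subunit Phf1 rose from 13.3–15.7 CPM to 45.3, 52.1 and 60.8 CPM.

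Markers of vessels, blood, meninges, choroid plexus, cortical hem and Cajal-Retzius cells were far lower in the sorted cells. All 18 endothelial and pericyte genes, all 11 erythroid genes, all 11 choroid plexus genes, all 14 cortical hem genes, 13 of 14 meningeal genes and 10 of 11 Cajal-Retzius genes fell. Summed levels went from 734.0–853.6 CPM at E12.5 to 64.8–70.1 CPM for the endothelial list, from 2431–3202 CPM to 29.7–129.7 CPM for the erythroid list, and from 1729–1910 CPM to 19.4–71.1 CPM for the meningeal list. Choroid plexus genes summed to 592.0 to 673.5 CPM against 15.3 to 30.8 CPM, hem genes to 456.3 to 484.9 CPM against 39.0 to 50.5 CPM, and Cajal-Retzius genes to 443.7 to 518.2 CPM against 26.1 to 128.1 CPM. These sums lay apart between the arms in every library. They move with the same contrast as the neuronal and cell cycle lists, and their part in those results was not tested.

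Kdr, the endothelial receptor for vascular growth factor, had 137 to 155 CPM at E12.5 and 2.18, 2.45 and 2.77 CPM at E15.5. Hbb-y, an embryonic beta-globin, had 1620 to 2146 CPM at E12.5 and 4.72, 0.239 and 20.6 CPM at E15.5. Col3a1, a fibrillar collagen of the meninges, had 790 to 858 CPM and then 21.9, 2.69 and 7.47 CPM. None of these markers was at 0 in a GFP control, but each was low there. The highest GFP control level of each was at most 2.77% of its lowest E12.5 level. Since Hbb-y is an embryonic globin, stage may enter its fall, which was not tested. Reln, the signal secreted by Cajal-Retzius cells, fell from 240–302 CPM to 17.8, 7.0 and 14.1 CPM, and Trp73, a p53 relative of those cells, from 36.1–46.5 CPM to 0.608–1.37 CPM. The hem signal Wnt3a had 10.9 to 12.1 CPM at E12.5 and 0 counts in all 3 GFP controls, which, with a floor of 3 counts per library, makes it at least 68.8-fold lower. In the meningeal list Ptgds, a prostaglandin synthase, rose from 0.740–0.891 CPM to 2.64, 7.06 and 8.57 CPM.

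Microglial genes fell less evenly. Of 18 tested, 6 fell, none rose and 12 were not called (median -0.91). Without GFP control 3, 10 fell, and without GFP control 1 the median was -0.53. The list summed to 26.0, 62.7 and 65.2 CPM in the GFP controls against 139.1 to 153.6 CPM, and GFP control 1 was lowest for 16 of the 18 genes. Mrc1, a receptor of border macrophages, fell from 38.4–54.2 CPM to 0.862, 1.26 and 1.11 CPM. Csf1r, the growth factor receptor of microglia, fell from 22.9–24.6 CPM to 5.07, 12.0 and 10.3 CPM. P2ry12, a receptor of resident microglia, was not called, at 2.59, 4.25 and 5.31 CPM against 3.63 to 4.95 CPM.

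**Figure D4:**
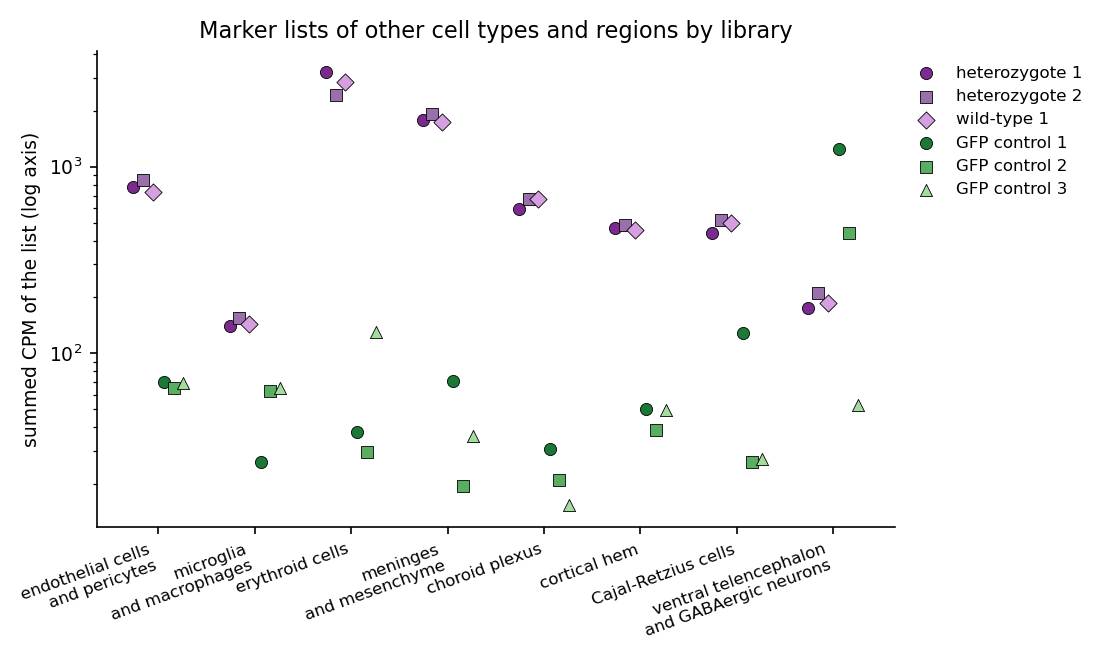
Summed CPM (log axis) of 8 marker lists of other cell types and regions in each of the 6 libraries, 1 point per library. The endothelial, erythroid, meningeal, choroid plexus and hem lists lie far lower in every GFP control than at E12.5, while the ventral telencephalon list runs from 1237 CPM in GFP control 1 to 53.1 CPM in GFP control 3, on both sides of the E12.5 libraries.

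Ventral telencephalon genes separated the GFP controls from each other. These genes mark GABAergic neurons and their progenitors, which arise outside the dorsal telencephalon. The list summed to 1237, 443.0 and 53.1 CPM in GFP controls 1, 2 and 3, a 23.3-fold range, and to 174.0, 209.5 and 184.9 CPM at E12.5. Of 17 genes tested 4 rose and 2 fell, and only 3 had arms that did not overlap, against 11572 of all 15968 genes. Dlx2, a homeobox factor of GABAergic progenitors, stood at 145, 55.8 and 2.60 CPM in GFP controls 1, 2 and 3, against 5.96 to 9.91 CPM in the tissue. Its call was lost without any 1 library other than GFP control 3 (edgeR adjusted p 0.0902 to 0.135), with library totals, upper quartile factors or no count filter, and in limma voom. Gad1 and Gad2, which make GABA, had 120 and 162 CPM in GFP control 1 and 1.6 and 2.99 CPM in GFP control 3, and were not called. The list's median of 2.50 was 2.98 without GFP control 3 and 1.03 without GFP control 1. The number that rose was 12 without GFP control 3, 1 without GFP control 1 or 2, and 0 without any 1 of the 3 E12.5 libraries.

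The counts of 3 cortical lists held without either of those libraries. Without GFP control 1, 22 of 24 pan-neuronal genes, 14 of 16 upper-layer genes and none of 24 G2 and M phase genes were called higher, and all 24 of the last list were called lower. Without GFP control 3 the numbers were 22, 14, 0 and 24, with 1 pan-neuronal gene called lower. The G2 and M phase calls did not hold in the same way elsewhere. They dropped to 9 of 24 without GFP control 2, and to 17 or 18 without any 1 E12.5 library. The oligodendrocyte lineage, which appears later in development, had 3 of 8 tested genes lower and none higher (all genes 31.3% and 31.1%). Only 1 was lower without GFP control 2 or without any 1 E12.5 library, and 2 were higher without GFP control 3. Pdgfra, a receptor of its progenitors and of mesenchyme, fell from 54.0–62.1 CPM to 7.0, 4.37 and 0.332 CPM.

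Genes that respond to tissue dissociation were partly higher in the sorted cells. Of 18 immediate early and dissociation genes tested, 10 rose and 2 fell (median 0.88), and 6 rose without heterozygote 1 or without the wild-type library. Fos stood at 24.2, 25.7 and 16.8 CPM against 0.441 to 0.740 CPM (log2 fold change 5.15 ± 0.28), and Fosb at 13.4, 6.28 and 3.54 CPM against 0 to 0.137 CPM. Jund and Dusp1 rose by 1.79 and 1.84. Jun, Ier2 and Atf3 were not called, and Arc and Klf2 fell by 1.22 and 1.59. Neuronal activity also induces several of these genes, and the part of sorting in them was not tested.

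Of the response lists, interferon genes were lower in 7 of 10 tested and higher in 2 (1 without any 1 E12.5 library), all of those lower at under 10 CPM in every library. The p53 response list had 3 genes higher and 4 lower of 13, against 31.1% and 31.3% of all genes. In it Bbc3, a mediator of cell death, rose from 4.35–4.56 CPM to 15.1, 30.9 and 41.9 CPM, and Pmaip1, another, fell from 6.33–8.37 CPM to 0.913–2.54 CPM.

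Of 20 hypoxia and glycolysis genes tested, 11 fell and 5 rose (median -0.36), and 3 rose without any 1 E12.5 library. Hexokinases went opposite ways: Hk1 rose from 45.3–46.0 CPM to 116, 144 and 188 CPM, and Hk2 fell from 53.5–55.3 CPM to 13.8–20.7 CPM. Among the enzymes, Pgk1 and Eno1 fell by 1.23 and 1.27 and Ldha by 1.07. Processed copies of glycolytic genes could take or remove reads here, so these levels are uncertain. Of 19 cholesterol synthesis genes tested, 12 rose and 3 fell (median 0.33), and scaling by totals left 7 and 4. Fdft1, which makes squalene, rose by 1.29, and Idi1, an isomerase earlier in the pathway, fell by 1.03. Of 10 mitochondrially encoded mRNAs tested, 4 fell and none rose, mt-Nd5 by 0.80 and mt-Co1 by 0.48.

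Among the 12 protein-coding genes with the largest increase, beside Inhba, Aldh1l1 and Fos, were Tfap2d, a transcription factor, Adra2c, an adrenergic receptor, Gipr, the receptor for gastric inhibitory polypeptide, Cdh12, a cadherin, Sla, an adaptor of tyrosine kinases, Ube2ql1, Jakmip1 and BC049730. Tfap2d stood at 28.4, 13.5 and 5.86 CPM against 0.103 to 0.220 CPM in the tissue. Ube2ql1, a ubiquitin-conjugating enzyme, had 370, 549 and 803 CPM against 13 to 16.3 CPM, and Jakmip1 had 100, 190 and 290 CPM against 4.66 to 5.97 CPM. Sla had 88.9 and 105 CPM in GFP controls 1 and 2 and 395 CPM in GFP control 3, against 2.95 to 4.52 CPM. All 12 had arms that did not overlap, which the naming rule required.

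Of the 12 with the largest decrease, Wnt3a, Wnt8b and Wnt2b belong to the hem, Htr2c to the choroid plexus, and Hbb-y, Hbb-bh1 and Slc4a1 to red blood cells. The others were Alx4, a homeobox factor of mesenchyme, Zic4, a zinc finger factor of the dorsal midline, Gmnc, a regulator of multiciliated cells, Cfap65, a protein of motile cilia, and Fndc3c1. Zic4 had 118 to 148 CPM at E12.5 and 0.507, 0.838 and 0.111 CPM at E15.5. Alx4 had 18.9 to 21.5 CPM at E12.5 and 1 count in GFP control 1 with none in the other 2. Gmnc had 34.3 to 36.3 CPM at E12.5 and 5, 1 and 1 counts in the GFP controls.

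The same stage contrast was read in the other 5 libraries, which share none with the 6 above: 3 of E15.5 sorted cells with the L3mbtl3 plasmid and 2 of E12.5 tissue labelled knockout. There 5545 of 16339 genes (33.9%) were called higher at E15.5 and 5915 (36.2%) lower. Of the 4963 genes called higher in the 6 controls, 4952 were tested in the others, where 4437 (89.6%) were called higher and 6 lower. Of the 4992 called lower, 4884 were tested, where 4501 (92.2%) were called lower and 9 higher. This contrast carries the same electroporation and sorting, and L3mbtl3 itself differed in it, at 1500, 1240 and 887 CPM in the gain libraries against 67.1 and 70.3 CPM in those labelled knockout. By these CPM the libraries labelled knockout did not show less L3mbtl3 RNA than the 56.2 to 58.9 CPM of the E12.5 controls. The 2 sets of libraries carry separate TMM factors, so their CPM compare only roughly. Which part of the gene was deleted is not given in the sources used here, so counts over the whole gene do not check that label.

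List by list, the other libraries gave 22 of 24 pan-neuronal genes higher (median 2.31), 14 of 16 upper-layer genes higher (2.35), 24 of 24 G2 and M phase genes lower (-2.12) and 18 of 25 apical genes lower with 4 higher (-1.19). Cux2 stood at 433, 396 and 422 CPM against 43.3 and 52.0 CPM, and Mki67 at 178, 211 and 170 CPM against 840 and 845 CPM. For Cux2 and Mki67 the E15.5 libraries lay closer together there than the GFP controls did. Tbr1 went the other way, at 489, 357 and 316 CPM in the gain libraries against 405, 475 and 409 CPM in the GFP controls. Sox2, not called in the controls, fell by 1.37. Microglial genes were lower in 16 of 18 there (median -3.36), against 6 of 18 in the controls. None of 15 tested ventral genes was called higher and 1 was called lower (median 0.78).

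**Figure D5:**
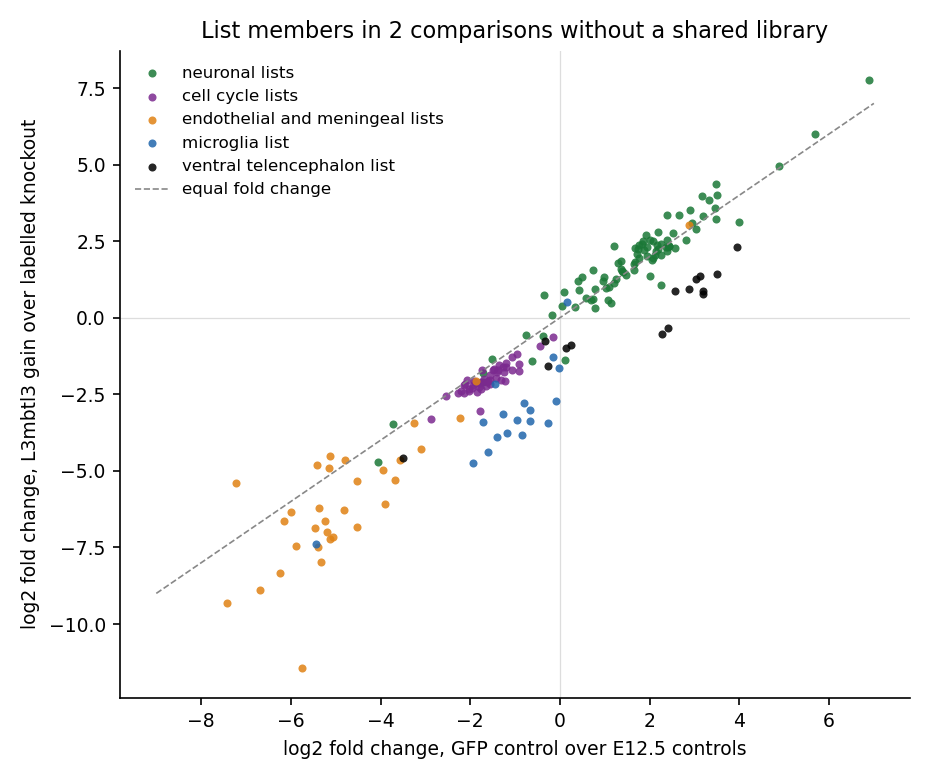
Log2 fold change of list members in the 6 controls (horizontal axis) and in the 5 other libraries (vertical axis), 1 point per gene, coloured by list, with a dashed line at equal fold change. Neuronal and cell cycle genes lie near the line, and most microglia and ventral telencephalon genes lie below it, with list medians of -0.91 and -3.36 for microglia and of 2.50 and 0.78 for the ventral list.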

How the data were processed

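Per the labels' protocols, stranded polyA-selected libraries (TruSeq) were read from 1 end for 75 bases. The authors deposited raw counts of reads per gene, which per the file headers were made by featureCounts 2.0.1 over exons in its reverse-stranded mode. HISAT2 2.2.1, SAMtools 1.9, FastQC 0.11.8, CASAVA 1.9 and deepTools 3.3.0 and the build GRCm38 are named in the submitters' processing notes, and the annotation release is not given in the sources used here. The count command in the headers names no option for multiply mapped reads, so levels of genes with near-identical copies are uncertain. Of 46078 genes per file, 45143 matched a symbol in the reference table and the 935 others held 0.112% of the counts.

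Counts of the 6 control libraries were tested with edgeR 4.0.16 in R 4.3.3 (filterByExpr, TMM factors, robust quasi-likelihood fit, 2-sided, Benjamini-Hochberg adjustment over 15968 genes), and against a 2-fold threshold with edgeR's glmTreat. The script was tested on simulated counts. CPM carry TMM factors. The SE of an edgeR log2 fold change is its size divided by the square root of the F statistic. TPM used the deposited exon lengths. A count of 0 allows up to 3 counts, which is 0.113 to 0.182 CPM by library before TMM factors, for counting error only.

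The 38 gene lists, 628 of whose 629 genes were found, and the naming rule were chosen with earlier results of these data known. The rule named L3mbtl3, a set of neurogenesis genes, the 12 coding genes called with the largest change in each direction (at least 10 CPM in the higher arm, no overlap), up to 5 called members per list at 5 CPM or more, and up to 2 that moved against the majority. Further list members were named after their values were seen, and some genes the rule names are not reported here. Replicate numbers did not pair the arms: deviations of the libraries correlated at -0.0473 to 0.033. No libraries of an arm were counted as 1, since their counts differed by more than sampling noise. Chi-square over its degrees of freedom was 29.7 to 94.4 between GFP controls and 2.60 to 3.79 between E12.5 controls. Such a difference does not show that the libraries came from separate embryos. Alternatives were DESeq2 1.42.0, limma 3.58.1 (voom, with and without sample quality weights), other scalings and filters, a fit of all 11 libraries, either E12.5 genotype alone, a replicate block, the 5 other libraries, and leaving out each library.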

Additional observations from a re-analysis of the deposited data

Results flagged for a closer look

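Among the listed genes reported here, 5 had a stage difference that itself differed between the 5 other libraries and the 6 controls by an interaction term in an edgeR fit of all 11 libraries, where 29 of 17060 genes were called (16 positive, 13 negative). Values are the log2 difference of the others minus that of the controls, and CPM of the 2 sets carry separate TMM factors. The term holds both the L3mbtl3 plasmid at E15.5 and the knockout label at E12.5, which cannot be told apart in it. L3mbtl3, which one of the plasmids carried, differed by 4.22 (edgeR adjusted p = 8.44e-05). Kcnh7, a potassium channel, differed by 1.13, with 32.4, 27.0 and 26.4 CPM in the GFP controls and 33.1 to 39.6 CPM in the E12.5 controls, against 38.3 to 42.9 CPM in the E15.5 gain libraries and 27.1 and 21.7 CPM in the E12.5 libraries labelled knockout. Cacna2d1, a calcium channel subunit, differed by 0.81 and Srrm4, a neuronal splicing factor, by 0.67, both with a larger increase in the others. Cdh5, an endothelial cadherin, differed by -2.08, with 0.284 to 0.665 CPM in the gain libraries, 1.85 to 2.93 CPM in the GFP controls and 66.5 to 88.7 CPM in the 5 E12.5 libraries. The adjusted p of the last 4 ran from 0.0291 to 0.0463 in that edgeR fit.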

How the results depend on the processing

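Counts of called genes stayed within 1.5 times the reported ones under each other scaling, filter and test, in the fit of all 11 libraries and with the heterozygotes alone. With the wild-type library alone at E12.5 they fell to 1553 higher and 1127 lower, and beyond 2-fold to 229 and 292, in a fit that assumes that lone library to vary like the E15.5 arm. Leaving out each library in turn gave 3967 to 5464 genes higher and 3826 to 5869 lower, and beyond 2-fold 1055 to 1825 and 1358 to 2754. A replicate block gave 5189 higher and 5340 lower, and 1401 and 2141 beyond 2-fold. The numbers did not pair the libraries. Of 213 named and tested genes, 182 were called, 173 of these kept call and direction under 9 scaling, filter and test settings, and 167 kept them without each library in turn. Many were named for large called changes or after their values were seen, so these numbers do not describe all called genes. None of the 182 changed sign in those settings. Of the 31 not called, 21 changed sign somewhere without being called, and 12 such changes came without GFP control 1. Without GFP control 2, 14 called genes missed the threshold, Mki67, Top2a and Pax6 among them. Without a filter on low counts 12 of 24 G2 and M phase genes were called, and with DESeq2 or limma voom 24 of 24 were. In the 5 other libraries Jag2 (-0.25) and Nfia (0.054) took the opposite sign on the log2 scale, and the cause was not tested. L3mbtl3, not called in the controls (-0.06), had a log2 fold change of 4.13 there, where the E15.5 cells carried the L3mbtl3 plasmid. The G2 and M phase sum had a 4.27-fold range within the E15.5 arm. With 3 libraries per arm, differences of cell cycle genes were near the limit of what could be called with edgeR.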

Other observations

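Gene kind and length were not described above. Of the genes called higher, 4597 were protein-coding, 85 pseudogenes and 196 long noncoding RNA genes, and of those called lower 4595, 102 and 204. The median exon length of coding genes was 4116 bases among those called higher and 4358 among those called lower, and over 13743 coding genes, not independent of each other, the log2 fold change and exon length had a Spearman rho of -0.0384.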
